A study of Oryza sativa Japonica Group with 6 samples.

Results

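Histone genes of rice (Oryza sativa, Japonica group) were followed in seedling leaves of wild type and of a line overexpressing the transcription factor OsWRKY65. Members were taken by their annotation text (histone H1, H2A, H2B, histone H3, histone H4 or histone core, without modifying enzymes) and by a minimum of 10 reads in at least 3 libraries. The deposited table lists 37863 genes, the text matched 66, and 52 of these had enough reads. By annotation 47 of the 52 encode histones: 3 linker histones H1, 13 H2A, 11 H2B, 10 H3 and 10 H4 genes. The other 5 matched because their text mentions a histone, and encode 2 S-adenosylmethionine synthetases, 2 ubiquitin ligases and 1 protein of a histone exchange complex.

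Seedling leaves, 14 days after planting, gave 6 polyA RNA libraries, 3 of wild type (WT) and 3 of OsWRKY65-2, which carries OsWRKY65 overexpression. All plants grew on MS medium in a light and dark cycle. The labels name a single overexpression line, give no promoter for the transgene, and do not say that replicates came from separate plants, so the p-values reflect only how much these libraries vary, which may be technical variation. WT was assigned to the 3 table columns left over after those named for the line, and every direction given here rests on that.

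Nucleosomes are made of the core histones H2A, H2B, H3 and H4, around which DNA is wrapped, and the linker histone H1 binds the DNA between them. Many core histone genes are expressed mainly during DNA replication, when new chromatin must be packed, while replacement forms are made throughout the cell cycle. Plant histone mRNAs of both kinds carry polyA tails and are therefore seen in polyA libraries, and in grass leaves dividing cells are found mainly at the base of the growing blade.

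Library totals ranged from 20585288 to 29720852 counts. WT replicate 2 and OsWRKY65-2 replicate 2 were the deepest, at 29720852 and 28361580 counts. OsWRKY65-2 replicate 3 stood apart: 20893 genes had a count there, against 24091 to 27129 in the others, and 2444 genes well covered in the remaining libraries (median over 50 counts) had none, compared with 28 to 198 such genes per library otherwise. Results are therefore given with and without it. OsWRKY65 itself, taken as Os12g0116800, was at 4.16, 0 and 0 CPM (library-scaled counts) in WT replicates 1 to 3 and at 69.5, 42.3 and 1039.6 CPM in the line. It was above WT in every line library. The difference, 8.04 ± 2.62 (SE) on the log2 scale, did not pass edgeR's quasi-likelihood test with Benjamini-Hochberg adjustment (adjusted p = 0.763). The leaf gene for chlorophyll a/b-binding protein, Os09g0346500, was at 2331 to 4818 CPM, and 6 leaf markers together at 6231 to 8940 TPM in WT and 9948 to 10793 TPM in the line. In 5 of the 6 every line library was above every WT library, which 7.16% of all tested genes also showed. The remaining marker, Os09g0439500, was at 7.33 CPM in OsWRKY65-2 replicate 3, against 18.0 to 29.9 CPM in WT. The root-specific gene RCc3 (Os02g0662000) was at 0.999 CPM or less, and was at 0 in OsWRKY65-2 replicate 3. The root marker list summed to 785.5 TPM in that library, against 18.2 to 184.5 TPM in the others. Of this, 746.0 TPM came from Os12g0555000, a root-specific pathogenesis-related protein also annotated for drought, salt and defence. Os10g0442900, a transporter annotated for the Casparian strip, was also higher there, at 82.8 CPM against 13.5 to 22.6 CPM in the others. Os04g0101800 was lower there, at 6.26 CPM against 8.34 to 14.4 CPM, and the rest of the list was at 0. The part of these genes in the results was not tested.

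Histone transcripts were above the WT mean in OsWRKY65-2 replicates 1 and 2 and far below it in replicate 3. The median over the 47 genes of log2(CPM + 1) relative to the WT mean was -0.14, 0.25 and -0.03 in WT replicates 1 to 3. In the line it was 0.39, 0.91 and -1.89. By this median, replicates 1 and 2 of the line lay above every WT library and replicate 3 below every one. The line thus enclosed WT from both sides. By summed TPM of the 47 genes this did not hold for replicate 1, at 4974 within the WT range of 4280 to 5559. Replicates 2 and 3 were outside it, at 7836 and 2102.5 TPM. Over all 23769 tested genes this median stayed between -0.03 and 0.04 in the other libraries and was -0.27 in OsWRKY65-2 replicate 3. In leaf tissue, a smaller number of dividing cells and less histone RNA per cell cannot be told apart.

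**Figure D1:**
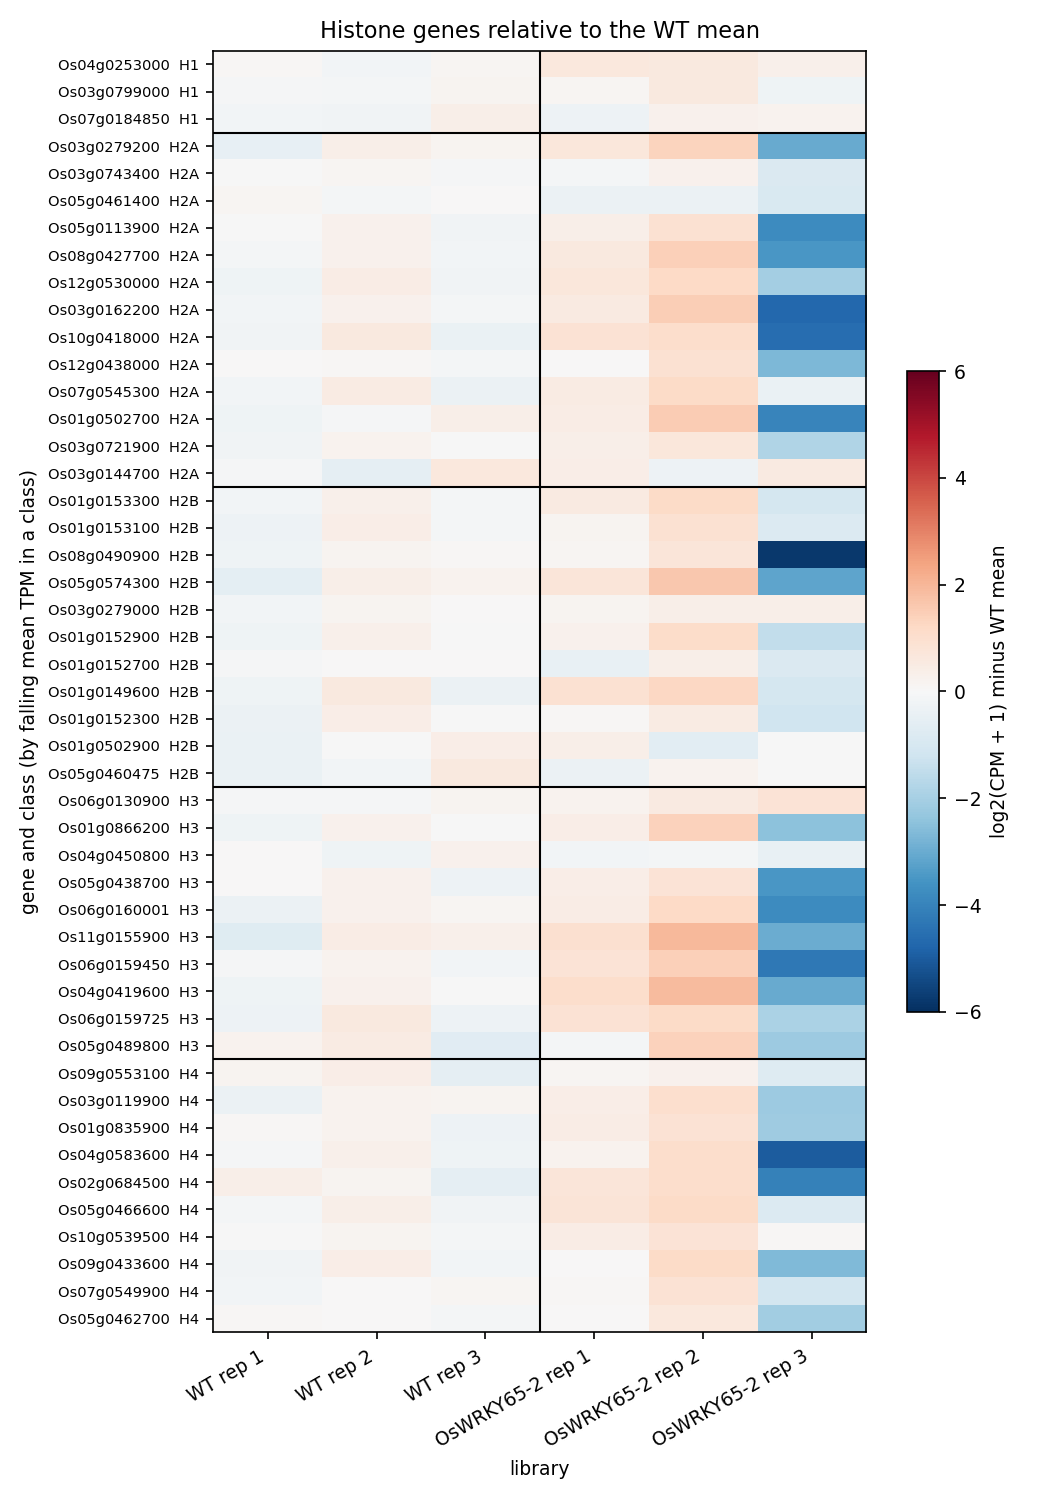
Heat map of the 47 histone genes (rows, by class and by falling mean TPM) in the 6 libraries (columns), coloured by log2(CPM + 1) minus the WT mean of the gene. Replicates 1 and 2 of OsWRKY65-2 are mostly red, with medians of 0.39 and 0.91, and replicate 3 is mostly blue, with a median of -1.89 and a lowest value of -5.78.

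No histone gene passed the test between genotypes. Over all 6 libraries edgeR called 0 of the 52 genes higher and 0 lower, against 0% and 0% of all tested genes. At an unadjusted p under 0.05 there were 2 of the 47 histone genes, or 4.26%, against 6.51% of all tested genes. Of the 47, 37 had a positive log2 fold change, with a median of 0.28 against -0.01 over all tested genes. This median turned to -0.35 without OsWRKY65-2 replicate 2, so its direction rested on that library. It was also negative in limma-voom (-0.24) and in limma-trend on log2(TPM + 1) (-0.50). DESeq2 called 1 of the 52 genes higher, against 1.76% of all genes, and 0 lower, against 1.27%.

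Without OsWRKY65-2 replicate 3 the log2 fold changes were larger and still did not pass. Here 42 of the 47 histone genes were positive, and the median was 0.68 against 0.02 over 24677 tested genes. By CPM, both remaining line libraries lay above all 3 WT libraries in 26 of the 47 genes, or 55.3%. Of all tested genes 14.5% had this order. In 1 gene both lay below, against 13.9%. These counts depend on the scaling and were not made by TPM. By TPM, Os03g0279200 overlapped, at 406.9 in OsWRKY65-2 replicate 1 and 410.6 in WT replicate 2. Os01g0866200 was likewise at 228.8 and 261.2 TPM there, while Os08g0427700 stayed separated, at 88.2 and 88.0 TPM. In limma-trend on log2(TPM + 1) the histone median was 0.43 on these libraries, against -0.17 over all tested genes. An unadjusted p under 0.05 was reached by 26 genes, against 10.6% of all genes, but edgeR called 0 of the 52 higher and 0 lower, against 0.0527% and 0.0243% of all genes, and the lowest adjusted p was 0.148. DESeq2 called 5 of the 52 higher on these libraries, against 1.11% of all genes, and 0 lower, against 1.73%. Those 5 were the linker histone Os04g0253000, the H3 genes Os04g0419600 and Os06g0159450, the H2A gene Os08g0427700 and the H2B gene Os01g0153300 (DESeq2 adjusted p from 0.00174 to 0.0443).

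**Figure D2:**
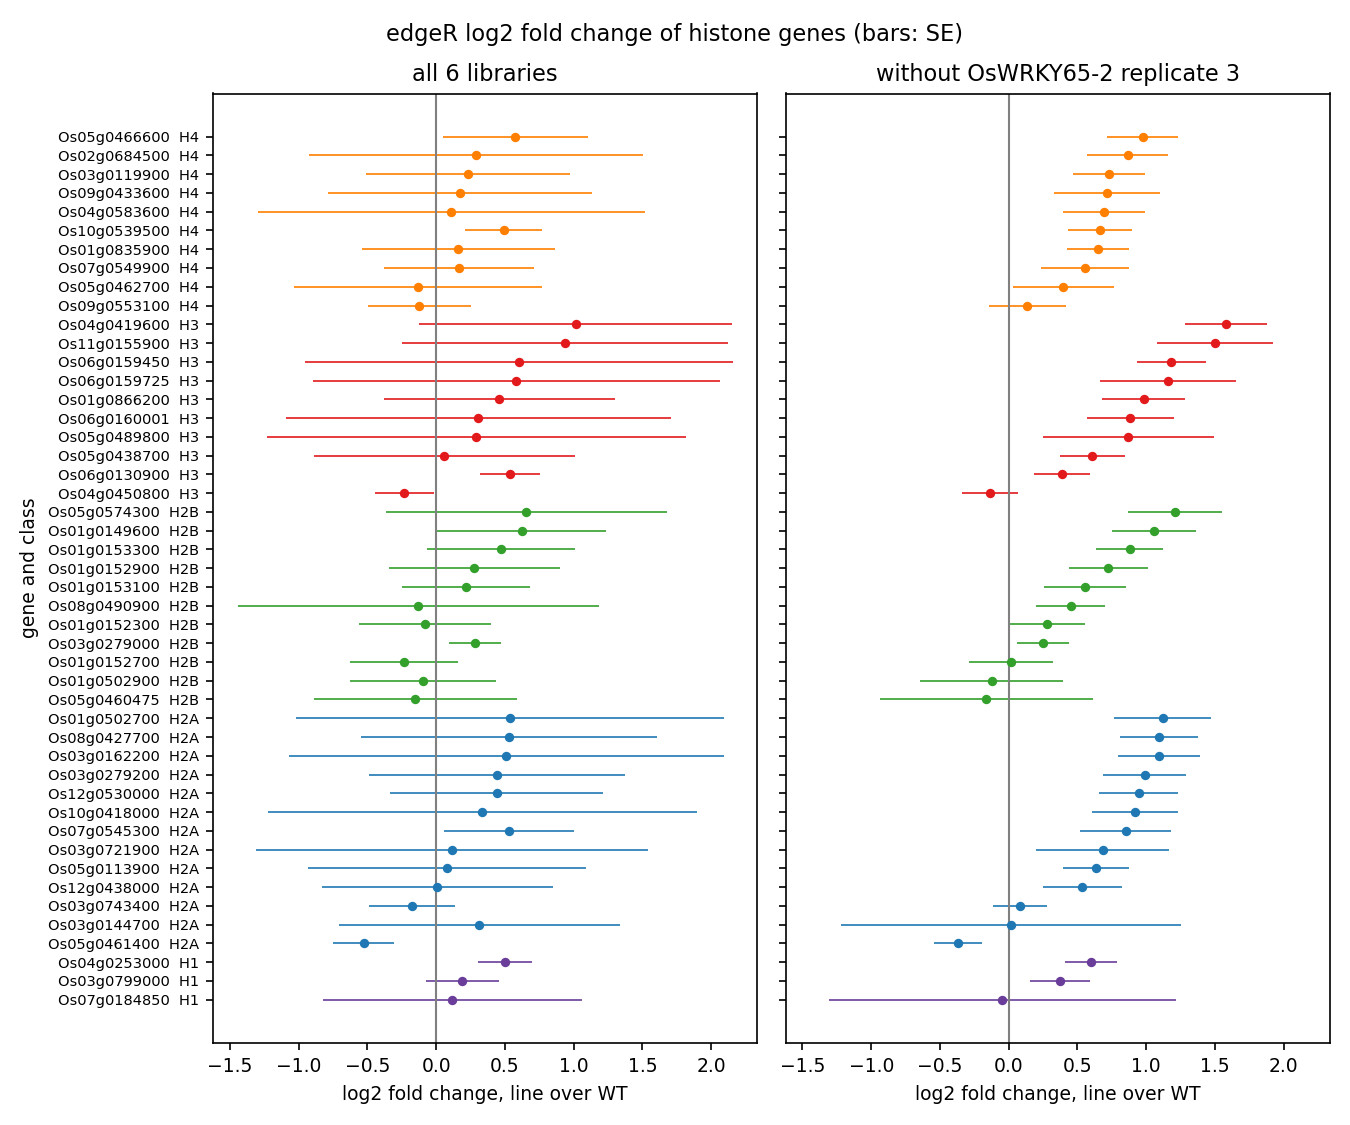
Log2 fold change of each histone gene in edgeR (horizontal axis, line over WT, bars show the SE) with all 6 libraries on the left and without OsWRKY65-2 replicate 3 on the right, coloured by class. On the left the values centre on a median of 0.28 with wide bars, and on the right on 0.68 with narrower bars and 42 of 47 values above 0.

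Summed over a class, per transcript length, the core histones spanned a wider range of levels between libraries than the linker histones. The 13 H2A genes together were at 1079, 1397 and 1026 TPM (a level corrected for transcript length) in WT and at 1210, 1976 and 250.4 TPM in the line. The 11 H2B genes were at 1011, 1472 and 1073 TPM in WT and at 1208, 2035 and 424.4 TPM in the line. For the 10 H4 genes the sums were 859.9, 1020 and 629.3 TPM in WT and 863.7, 1339 and 211.5 TPM in the line. In all 3 classes OsWRKY65-2 replicate 2 was highest and replicate 3 lowest, and replicate 1 lay within the WT range. WT replicate 2 was the highest WT library in each, so that within both genotypes the highest sum came from the deepest library. The part of depth in this was not tested, although CPM and TPM both scale for it.

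The summed H3 level in OsWRKY65-2 replicate 3 was 766 TPM, against 1045, 1181 and 1024 TPM in WT and 1107 and 1788 TPM in replicates 1 and 2 of the line. A single gene, Os06g0130900, gave 631.5 of the 766 TPM. In that replicate 9 of the 10 H3 genes were below every WT library, against 48.0% of all tested genes. Under 10% of their WT mean were 7 H3 genes, against 20.3% of all tested genes with WT reads. The linker histones spanned the narrowest range, with 553.2, 488.4 and 527.9 TPM in WT and 585.2, 697.8 and 450.3 TPM in the line. All histones together held 0.232%, 0.280% and 0.228% of the counts in WT and 0.264%, 0.408% and 0.120% in the line. Replicate 1 of the line was within the WT range. The highest and the lowest histone share thus came from the same line.

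**Figure D3:**
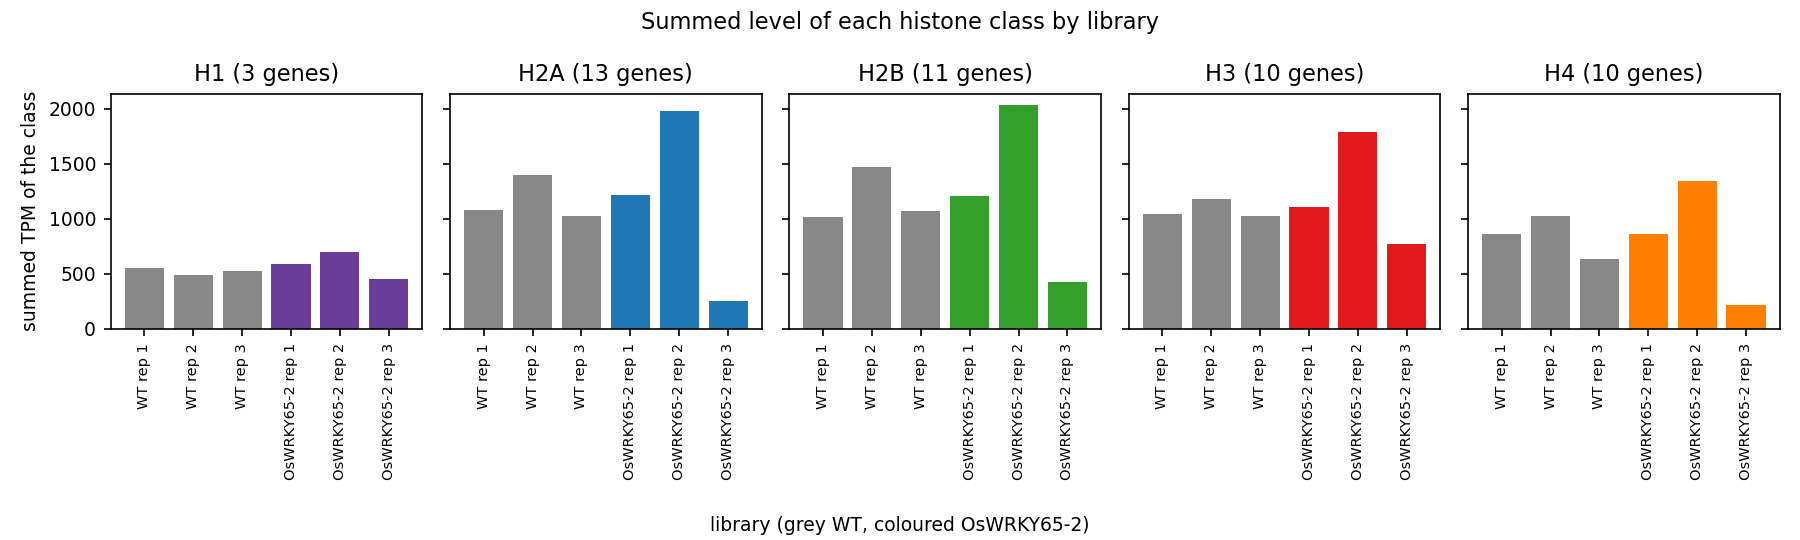
Summed TPM of each histone class (vertical axis) in the 6 libraries, WT in grey and OsWRKY65-2 in colour. OsWRKY65-2 replicate 2 is the highest bar in every class (697.8 to 2035 TPM) and replicate 3 the lowest (211.5 to 766 TPM).

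The linker histones, which bind DNA at the nucleosome's entry and exit, came almost entirely from 2 genes, which held at least 99.5% of the H1 TPM in every library. Os04g0253000 was at 173, 150 and 181 CPM in WT and at 260, 249 and 204 CPM in the line. By CPM every line library was above every WT library, with replicate 3 closest to WT. By TPM replicate 3, at 298.2, lay within the WT range of 278.3 to 327.0. The WT mean was 168 ± 15.9 CPM and that of the line 238 ± 29.4 CPM (SD over 3 libraries each). In edgeR this gave 0.50 ± 0.20 (SE) on the log2 scale, with an adjusted p of 0.763. DESeq2 passed it with all libraries (adjusted p = 0.0382) and without replicate 3 (adjusted p = 0.0267). It was the sole histone gene that DESeq2 called in both sets of libraries.

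Its partner Os03g0799000 was at 186, 175 and 219 CPM in WT and at 212, 289 and 160 CPM in the line, with overlapping groups (log2 fold change 0.19 ± 0.27, adjusted p = 0.907, edgeR). Os07g0184850, the third H1 gene, had 15, 17 and 31 reads in WT and 8, 31 and 20 reads in the line, close to the minimum for inclusion. At that depth no difference was detectable (log2 fold change 0.12 ± 0.94, adjusted p = 0.984, edgeR).

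H2A genes, whose product pairs with H2B in the nucleosome, ranged in mean level from 1.44 to 349 TPM. Os03g0279200, the most abundant, was at 104, 187 and 163 CPM in WT and at 233, 369 and 17.2 CPM in the line. Replicates 1 and 2 of the line were above all WT libraries and replicate 3 was at 11.4% of the WT mean. Its log2 fold change with all libraries was 0.44 ± 0.93 (edgeR, adjusted p = 0.940), or 0.99 ± 0.30 without replicate 3 (adjusted p = 0.320, edgeR). Os08g0427700 had the smallest p of the class without replicate 3, at 28.2, 36.8 and 26.5 CPM in WT and at 46.3, 84.1 and 1.76 CPM in the line (log2 fold change 1.09 ± 0.28, adjusted p = 0.254, edgeR). With all 6 libraries the value was 0.53 ± 1.07 (adjusted p = 0.938, edgeR).

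A few H2A genes kept another pattern. Os03g0743400, annotated simply as an H2A protein, was at 156, 171 and 154 CPM in WT and at 148, 192 and 86.4 CPM in the line, and the genotypes overlapped (log2 fold change -0.17 ± 0.31, adjusted p = 0.926, edgeR). By CPM Os05g0461400 was the sole histone gene with every line library below every WT library. It was at 106, 91.8 and 99.2 CPM in WT and at 76.3, 77.3 and 52.7 CPM in the line. Over 6 libraries 1 of 47 genes, or 2.13%, had this order, against 10.5% of all tested genes. On the log2 scale the line differed by -0.53 ± 0.22 (edgeR, adjusted p = 0.764). Leaving out replicate 3 gave -0.37 ± 0.18 (edgeR, adjusted p = 0.509).

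Os01g0502700 had the highest H2A fold change over 6 libraries, at 11.8, 13.6 and 18.4 CPM in WT and at 20.1, 43.4 and 0 CPM in the line (0.54 ± 1.56 on the log2 scale, adjusted p = 0.957, edgeR). With 0 counts in replicate 3, its highest and lowest libraries both belonged to the line. Os03g0162200, Os10g0418000 and Os03g0721900 were also at 0 counts in that library, and at 71.0, 48.2 and 4.71 CPM in OsWRKY65-2 replicate 2. A count of 0 allows up to 3 counts, or 0.159 CPM in OsWRKY65-2 replicate 3, as counting error only.

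Of the H2B genes, 5 carry identifiers numbered close together on chromosome 1. All 5 were lower in OsWRKY65-2 replicate 3 than in WT but none was at 0 there. Os01g0153300 was at 78.4, 107.3 and 81.2 CPM in WT and at 130.5, 197.7 and 41.4 CPM in the line. Replicates 1 and 2 of the line were above WT and replicate 3 below it (log2 fold change 0.47 ± 0.54, adjusted p = 0.886, and 0.88 ± 0.24 without replicate 3, adjusted p = 0.278, both edgeR). Os01g0153100 was at 70.8, 118.8 and 82.9 CPM in WT and at 99.6, 167.4 and 49.4 CPM in the line, with overlapping groups (0.22 ± 0.46 on the log2 scale, adjusted p = 0.940, edgeR). It shares its older locus name with Os01g0152900, so the split of reads between both is uncertain.

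In the same stretch, Os01g0152700 was at 14.7, 15.5 and 15.8 CPM in WT and at 10.9, 20.1 and 8.08 CPM in the line (log2 fold change -0.24 ± 0.39, adjusted p = 0.923, edgeR). WT varied little and the line lay on both sides of it. Os05g0574300 on chromosome 5 had the highest H2B fold change, at 40.8, 80.1 and 71.2 CPM in WT and at 104.2, 192.2 and 5.94 CPM in the line. The value was 0.65 ± 1.02 with all libraries (adjusted p = 0.918, edgeR) and 1.21 ± 0.34 without replicate 3 (adjusted p = 0.290, edgeR).

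The extremes of OsWRKY65-2 replicate 3 were also found among H2B genes. Os08g0490900, one of the most abundant H2B genes in WT at 88.5, 121.4 and 112.4 CPM, was at 113.8, 179.6 and 0.963 CPM in the line, which is 0.896% of the WT mean in replicate 3. Os03g0279000 was at 46.1, 58.1 and 53.8 CPM in WT and at 58.8, 66.6 and 66.8 CPM in the line, every line library above WT. By TPM its groups overlapped, at 112.8 to 139.7 in WT and 112.7 to 138.2 in the line. Its neighbour by identifier is the H2A gene Os03g0279200, which in the same library was at 11.4% of its WT mean, against 127% for Os03g0279000. A second H2A and H2B pair, Os01g0502700 and Os01g0502900, differed likewise in replicate 3, where the H2A gene was at 0 counts and the H2B gene at 4.39 CPM, within its WT range of 3.16 to 6.17 CPM.

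H3 genes, whose tails carry many of the known chromatin marks, were led by Os06g0130900. It was at 206, 206 and 243 CPM in WT and at 256, 316 and 380 CPM in the line. By CPM every line library was above WT, and OsWRKY65-2 replicate 3 was the highest of all. By TPM OsWRKY65-2 replicate 1, at 430.6, was below the WT range of 435.1 to 453.3. Mean levels were 218 ± 21.5 CPM for WT and 317 ± 62.0 CPM for the line (SD over 3 libraries each). On the log2 scale the difference was 0.54 ± 0.22 (adjusted p = 0.763, edgeR), or 0.39 ± 0.20 without replicate 3 (adjusted p = 0.539, edgeR). By TPM it held 42.4%, 36.9% and 44.3% of the H3 transcripts in WT and 38.9%, 32.2% and 82.4% in the line, since most other H3 genes were low in replicate 3.

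Os01g0866200, the next H3 gene in level, was at 64.3, 92.6 and 74.8 CPM in WT and at 102, 203 and 13.0 CPM in the line. It followed the common order, with replicates 1 and 2 of the line above WT and replicate 3 below (log2 fold change 0.46 ± 0.84, adjusted p = 0.929, and 0.98 ± 0.30 without replicate 3, adjusted p = 0.323, both edgeR). Os04g0419600 had the largest fold change of any histone gene and the smallest adjusted p in edgeR without replicate 3. It was at 11.8, 17.2 and 14.0 CPM in WT and at 30.9, 55.3 and 0.856 CPM in the line. On the log2 scale the difference was 1.01 ± 1.14 with all libraries (adjusted p = 0.886, edgeR) and 1.58 ± 0.30 without replicate 3 (adjusted p = 0.148, edgeR, and 0.00174 in DESeq2). By CPM Os04g0450800 varied least of the larger H3 genes, at 90.5, 75.9 and 106 CPM in WT and at 81.4, 84.3 and 66.5 CPM in the line (-0.23 ± 0.22 on the log2 scale, adjusted p = 0.859, edgeR). By TPM every line library was below every WT library, at 96.9 to 134.2 in the line and 147.3 to 171.4 in WT.

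The 3 H3 genes numbered close together on chromosome 6 had almost no reads in OsWRKY65-2 replicate 3. Os06g0159450 was at 17.7, 21.3 and 16.3 CPM in WT and at 33.3, 50.6 and 0 CPM in the line. Leaving out replicate 3 gave 1.18 ± 0.25 on the log2 scale (adjusted p = 0.196, edgeR, and 0.00854 in DESeq2), and with it 0.60 ± 1.55 (adjusted p = 0.953, edgeR). Os06g0159725 and Os06g0160001 had 0 and 1 reads in that library, against 112 and 352 reads in OsWRKY65-2 replicate 1. These copies are annotated alike, so in the libraries where they had reads the split among them is uncertain.

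CENH3 (Os05g0489800) replaces H3 in the nucleosomes of centromeres, where the spindle attaches. It was at 4.16, 5.47 and 1.79 CPM in WT and at 3.20, 10.8 and 0 CPM in the line. The highest and the lowest library were both of the line, and the groups overlapped (log2 fold change 0.29 ± 1.52, adjusted p = 0.975, edgeR). Without replicate 3 the value was 0.87 ± 0.62 (adjusted p = 0.668, edgeR).

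H4 genes, the partners of H3, had a positive fold change in 8 of 10 with all libraries and in 10 of 10 without replicate 3. Os09g0553100, the first by mean TPM, was at 71.8, 84.4 and 43.0 CPM in WT and at 70.1, 75.9 and 37.0 CPM in the line. Its groups overlapped (log2 fold change -0.12 ± 0.38, adjusted p = 0.960, edgeR). Os03g0119900 was at 34.3, 52.1 and 49.4 CPM in WT and at 59.3, 90.9 and 9.09 CPM in the line. That is the common order again, at 0.23 ± 0.74 on the log2 scale (adjusted p = 0.961, edgeR), or 0.73 ± 0.26 without replicate 3 (adjusted p = 0.393, edgeR).

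Os05g0466600 had the highest H4 fold change in both fits, at 19.3, 27.7 and 18.0 CPM in WT and at 37.0, 48.4 and 11.5 CPM in the line. The value was 0.57 ± 0.53 (adjusted p = 0.857, edgeR) and 0.97 ± 0.26 without replicate 3 (adjusted p = 0.265, edgeR). Os05g0462700 was low throughout, at 5.60, 5.44 and 4.71 CPM in WT and at 5.24, 8.63 and 0.481 CPM in the line (-0.13 ± 0.90, adjusted p = 0.981, edgeR). Os10g0539500 was the sole H4 gene within its WT range of 15.6 to 19.4 CPM in OsWRKY65-2 replicate 3, at 18.1 CPM, while Os04g0583600 dropped there to 0.160 CPM from a WT mean of 36.8 CPM.

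Across classes, 39 of the 47 genes, or 83.0%, were below every WT library in OsWRKY65-2 replicate 3, against 48.0% of all tested genes. At 0 counts were 7 genes, or 14.9%, against 17.9% of all tested genes. The 7 were 4 H2A and 3 H3 genes. The level in this library as a percentage of the WT mean had a median of 21.0% over the histone genes, against 79.5% over all tested genes with WT reads. It was under 10% for 19 histone genes, or 40.4%, against 20.3% of all those genes. It was at 50% or more for 17, or 36.2%, against 64.6%. Class medians were 122% for H1, 11.4% for H2A, 46.5% for H2B, 5.68% for H3 and 20.5% for H4. Above every WT library were 3 genes, namely Os04g0253000 (H1), Os03g0279000 (H2B) and Os06g0130900 (H3), against 33.4% of all tested genes. By CPM the same 3 genes were those with all 3 line libraries above WT. This order was shown by 7.16% of all tested genes and 6.38% of the histone genes. By TPM none of these 3 genes had every line library above WT.

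**Figure D4:**
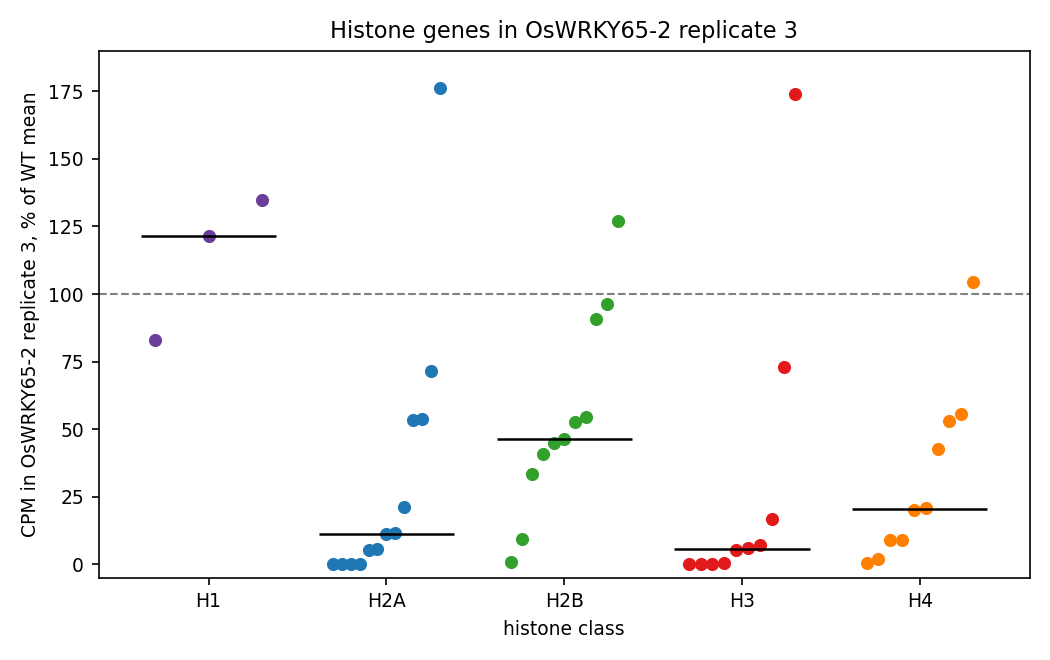
CPM in OsWRKY65-2 replicate 3 as a percentage of the WT mean (vertical axis, dashed line at 100%) for each histone gene by class, with the class median as a black bar. The medians run from 5.68% for H3 to 122% for H1, and the classes H2A and H3 hold all 7 genes at 0.

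In the other 5 libraries most histone genes had the same highest library. OsWRKY65-2 replicate 2 was the highest of the 5 for 39 of 47 genes, and WT replicate 2 was the highest WT library for 33. OsWRKY65-2 replicate 1 was above every WT library for 26. Both replicates numbered 2 were also the deepest libraries. The same counts and the correlation below were not computed over all tested genes. Whether the pattern is particular to histones was therefore not tested. As a description over 5 libraries, the correlation of log2(CPM + 1) of single genes with the median histone profile, to which each gene contributes, had a median of 0.93. It was over 0.8 for 34 genes and under 0 for 4. The lowest value, -0.88, was that of Os05g0461400, the H2A gene that was lower in the line.

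Of the 5 matched genes that do not encode histones, 4 were above every WT library in OsWRKY65-2 replicate 3 and 1, Os01g0269900, was below. Over all tested genes these shares were 33.4% and 48.0%. The S-adenosylmethionine synthetase Os01g0323600, which makes the methyl donor of histone and DNA methylation, was at 384, 432 and 343 CPM in WT and at 399, 450 and 504 CPM in the line (log2 fold change 0.22 ± 0.20, adjusted p = 0.853, edgeR). Os01g0293000, the second synthetase, was at 0.841, 2.47 and 0.203 CPM in WT and at 9.81, 1.68 and 5.03 CPM in the line. Its replicate 2 lay within WT (2.15 ± 1.06, adjusted p = 0.764, edgeR). The H2B ubiquitin ligase Os04g0550400 was at 101, 89.2 and 103 CPM in WT and at 120, 114 and 122 CPM in the line, above WT in every library (0.28 ± 0.17, adjusted p = 0.790, edgeR). Os01g0269900, of the complex that exchanges the variant H2A.Z, was at 20.2, 19.2 and 19.7 CPM in WT and at 30.1, 18.5 and 11.8 CPM in the line (0.03 ± 0.37, adjusted p = 0.990, edgeR). The second ligase, Os10g0565600, was at 58.6 to 71.4 CPM in WT and at 66.4 to 96.0 CPM in the line.

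Genes of DNA replication, which supply the forks that new histones follow, had the histones' order in the line, with replicate 2 highest and replicate 3 lowest. In WT replicate 2 was highest for both, but the lowest was replicate 3 for replication genes and replicate 1 for histones. Relative to the WT mean, the median of 41 tested replication genes was -0.01, 0.20 and -0.16 in WT and 0.34, 0.73 and -2.06 in the line. In OsWRKY65-2 replicate 3 21 of the 41 were at 0 counts, against 17.9% of all tested genes, and 37, or 90.2%, were below every WT library, against 48.0%. PCNA (Os02g0805200), the sliding clamp of DNA polymerase, was at 37.8, 64.5 and 48.0 CPM in WT and at 91.2, 156 and 11.0 CPM in the line. Replicates 1 and 2 were above WT and replicate 3 below. No replication gene was called with or without that library. With all libraries 26 of 41 were positive (median log2 fold change 0.14), and without it 38 of 41 (median 0.63), against medians of -0.01 and 0.02 over all tested genes.

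The 59 tested genes of the mitosis list had medians of 0.20, 0.34 and -2.81 in the line. The list was taken by annotation words such as cyclin, kinesin and spindle. It therefore also holds kinesins and meiosis genes that their annotation does not tie to mitosis. In OsWRKY65-2 replicate 3, 25 of the 59 were at 0 counts, against 17.9% of all tested genes, and 52, or 88.1%, were below every WT library, against 48.0%. Histone chaperones, which carry histones to DNA, had a smaller range, at 0.24, 0.37 and -0.66 over 11 genes. Among them the large subunit of chromatin assembly factor 1 (Os01g0896300), which loads H3 and H4 behind the fork, was at 21.0, 26.6 and 16.3 CPM in WT and at 33.2, 52.9 and 0.428 CPM in the line. Histone-modifying enzymes stayed near WT by median, at 0.10, 0.09 and -0.12 over 23 genes. In OsWRKY65-2 replicate 3, 10 of the 23, or 43.5%, were below every WT library, against 48.0% of all tested genes. For chaperones this was 6 of 11, or 54.5%. Single enzymes went both ways there, with Os09g0347800 at 0 CPM (WT 9.46 to 24.7) and Os02g0215200 at 38.9 CPM (WT 2.64 to 7.73). No gene of these 3 lists was called in either fit. With all libraries 30 of 59, 7 of 11 and 12 of 23 were positive in the order named, with median log2 fold changes of 0.05, 0.14 and 0.03. Without OsWRKY65-2 replicate 3 these were 42 of 61, 12 of 12 and 15 of 23, with medians of 0.37, 0.49 and 0.10.

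**Figure D5:**
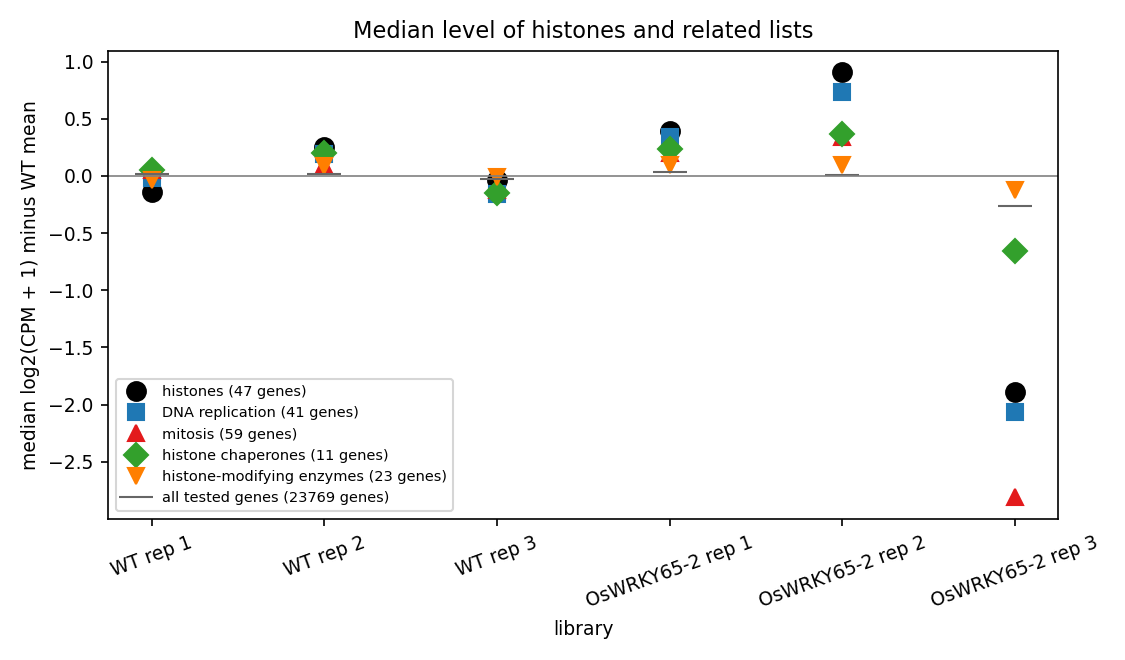
Median over genes of log2(CPM + 1) minus the WT mean (vertical axis) in each library for histones, 4 related lists and all tested genes. Histones and replication genes lie close together, at 0.91 and 0.73 in OsWRKY65-2 replicate 2 and at -1.89 and -2.06 in replicate 3. There the mitosis list is at -2.81 and histone-modifying enzymes are at -0.12.

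Single markers of the shoot meristem, a tissue of dividing cells, did not share a single order. Relative to the WT mean, the median of the 9 tested markers was -0.31, 0.37 and -0.46 in WT. In the line it was 1.40, 0.93 and -0.67. By median, replicates 1 and 2 of the line thus lay above every WT library and replicate 3 below, as for the histones. Of 13 such genes 9 were tested, and 3, 1 and 4 of them were at 0 counts in WT replicates 1 to 3, against 1, 1 and 7 in the line. Their summed level was 99.7 to 113.6 TPM in WT and 139.5, 116.6 and 130.7 TPM in the line. In OsWRKY65-2 replicate 3 the sum came almost entirely from 1 gene, so it does not give the level of the list as a whole. There 127.7 TPM came from Os08g0292900, a knotted-1-like homeobox gene, which was at 41.9, 40.0 and 49.8 CPM in WT and at 73.6, 37.4 and 109.8 CPM in the line. Os03g0727000, a KNOX gene annotated for meristem maintenance, was at 0, 2.14 and 0 CPM in WT and at 6.50, 5.39 and 0 CPM in the line. Os03g0673000, of the same family, was at 0.520, 1.44 and 0.812 CPM in WT and at 0 in every line library. The part of meristem or other dividing tissue in the histone levels was not tested.

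Of the 14 histone genes in the table that lacked the reads for inclusion, 9 were at 0 in every library and 5 had some reads. Just outside the minimum, the H2B gene Os09g0570850 had 0 reads in all WT libraries and 9, 21 and 61 in the line, and the H4 gene Os05g0462900 had 0, 6 and 0 in WT and 5, 13 and 0 in the line. Just inside it, the H2A gene Os03g0144700 had 20, 10 and 49 reads in WT and 29, 16 and 34 in the line.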

How the data were processed

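PolyA RNA of 3 WT and 3 OsWRKY65-2 leaf libraries was measured. The submitters' processing notes name HISAT2 2.1.0, StringTie 2.1.3b, bcl2fastq 2.20.0 and Trimmomatic, with the build IRGSP-1.0. How reads were counted and whether strand was used is not given in the sources used here. Read counts are, per the file headers, estimated counts that came as whole numbers. TPM values, scaled by the authors for transcript length and library size, served for levels between genes and in alternatives. The 6 FPKM columns were not used. Histone genes have near-identical coding sequences, so reads may be shared among copies. The reference gene table matched 0 of the 52 members, so positions and sequences are not given, and chromosomes are those in the identifiers.

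The test was edgeR 4.0.16 (R 4.3.3), robust quasi-likelihood, TMM factors (0.914 to 1.11), filterByExpr with a minimum count of 10, prior count 2, genotype as the sole term, and a Benjamini-Hochberg adjusted p under 0.05 over all genes. All 52 members were tested in both fits. SE is the absolute log2 fold change over the square root of F. The code was tested on simulated data. Alternatives used DESeq2 1.42.0, limma 3.58.1 (voom, or log2(TPM + 1) and log2(TPM + 0.1)), other factors and filters, a replicate block, and each library left out. Intervals and floors cover counting error only.

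Members and lists were chosen with earlier results of these data known. By rule 25 members were named: per class, the 2 highest in TPM, the extremes of fold change and the smallest p without OsWRKY65-2 replicate 3, plus H1 and variant genes. Other genes named were chosen after their values were seen. After the annotations were read, the 5 genes that do not encode histones were set apart, CENH3 was counted as a variant, and the word GINS in the replication list was restricted to whole words.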

Additional observations from a re-analysis of the deposited data

How the results depend on the processing

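No histone gene was called by edgeR under any filter, normalization, replicate block or omission tried. DESeq2 called 1 member higher with all libraries and 5 without OsWRKY65-2 replicate 3; the cause of the difference between tools was not tested. Over all genes the calls higher and lower were 2 and 0 without a filter, 419 and 303 in DESeq2, 2 and 0 in limma-trend with either pseudocount, and 0 to 13 and 0 to 6 with 1 library left out. Without OsWRKY65-2 replicate 3 they were 13 and 6 in edgeR, 7 and 1 with the replicate block, 274 and 426 in DESeq2, 5 and 2 in limma-voom and 31 and 53 in limma-trend.

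The median histone log2 fold change of 0.28 became -0.24 in limma-voom, -0.50 in limma-trend on log2(TPM + 1), -0.53 on log2(TPM + 0.1) and -0.18 with the replicate block. It ran from -0.35 without OsWRKY65-2 replicate 2 to 0.68 without replicate 3. Without replicate 3 it was 0.59 with the block, 0.69 in DESeq2, 0.67 in limma-voom and 0.43 in limma-trend, so its sign held across tools once that library was left out. Same-numbered samples deviated together by correlations of 0.0816, -0.0739 and -0.0114, so the numbers were not taken as pairing the samples, and the block is given here alone. OsWRKY65 reached 5.21 (adjusted p = 0.0367) in limma-trend without replicate 3, and had no value under the stricter filter, which likewise dropped members below 1 CPM in any library.

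Single log2 fold changes turned sign as follows, none of them called in edgeR, and the cause was not tested. In limma-trend on log2(TPM + 1) these were Os01g0153100 (-0.16), Os01g0153300 (-0.0266), Os01g0269900 (-0.29), Os01g0323600 (-0.0199), Os01g0502700 (-1.02), Os01g0866200 (-0.47), Os03g0119900 (-0.51), Os03g0279200 (-0.60), Os03g0799000 (-0.089), Os04g0419600 (-0.23), Os05g0489800 (-0.67), Os05g0574300 (-0.54), Os06g0159450 (-1.09), Os07g0184850 (-0.0511) and Os08g0427700 (-0.81). On log2(TPM + 0.1) they were Os01g0153100 (-0.16), Os01g0153300 (-0.0285), Os01g0269900 (-0.31), Os01g0323600 (-0.0199), Os01g0502700 (-2.10), Os01g0866200 (-0.48), Os03g0119900 (-0.53), Os03g0279200 (-0.61), Os03g0799000 (-0.0896), Os04g0419600 (-0.52), Os05g0489800 (-1.68), Os05g0574300 (-0.57), Os06g0159450 (-2.17), Os07g0184850 (-0.10) and Os08g0427700 (-0.91). In limma-voom they were Os01g0269900 (-0.0702), Os01g0502700 (-1.58), Os01g0866200 (-0.20), Os03g0119900 (-0.22), Os03g0279200 (-0.35), Os04g0419600 (-0.12), Os05g0489800 (-1.56), Os05g0574300 (-0.26), Os06g0159450 (-1.56) and Os08g0427700 (-0.53). With the replicate block they were Os01g0269900 (-0.0714), Os01g0502700 (-0.35), Os01g0866200 (-0.12), Os03g0119900 (-0.18), Os03g0279200 (-0.14), Os05g0489800 (-0.92), Os06g0159450 (-0.44) and Os08g0427700 (-0.33). Without OsWRKY65-2 replicate 3 they were, in DESeq2, Os01g0152700 (0.00901), Os03g0743400 (0.0764), Os05g0462700 (0.40), Os07g0184850 (-0.0545) and Os09g0553100 (0.13). For limma-voom on those libraries they were Os01g0152700 (0.00248), Os03g0743400 (0.0719), Os05g0462700 (0.41) and Os09g0553100 (0.19), for limma-trend Os01g0323600 (-0.078), Os05g0462700 (0.13) and Os07g0184850 (-0.15), and for the block Os03g0743400 (0.0437) and Os05g0462700 (0.29). With 1 library left out the ranges that crossed 0 were those of Os01g0152700 (-0.71 to 0.015), Os01g0153100 (-0.31 to 0.55), Os01g0153300 (-0.0848 to 0.88), Os01g0269900 (-0.38 to 0.30), Os01g0502700 (-0.59 to 1.12), Os01g0866200 (-0.47 to 0.98), Os03g0119900 (-0.45 to 0.73), Os03g0279200 (-0.33 to 0.99), Os03g0743400 (-0.48 to 0.0831), Os03g0799000 (-0.0785 to 0.37), Os05g0462700 (-0.90 to 0.40), Os05g0489800 (-1.25 to 0.87), Os05g0574300 (-0.27 to 1.21), Os06g0159450 (-0.20 to 1.18), Os07g0184850 (-0.0966 to 0.56), Os08g0427700 (-0.39 to 1.09) and Os09g0553100 (-0.36 to 0.14).

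With 3 libraries a group, 1 of which stood apart in the line, edgeR's spread was wide for most histone genes, and low-count members such as Os07g0184850 were not resolved.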
